A study of Bos indicus with 5 samples.

Results

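Transcripts of the complement system were described in the ampulla, the ovarian end of the oviduct where fertilization takes place, in 5 Nelore cows. Complement is a protein cascade of body fluids in which proteases cleave the central component C3 and tag surfaces with its fragments. Membrane and soluble regulators keep the cascade off the body's own cells. In the oviduct it is known for a further role, because C3 is secreted by the epithelium and its product iC3b is embryotrophic in culture. Genes were taken by symbol, and 8 of the 9 symbols chosen had a row among the 24616 genes of the table. They comprised the components C3, CFB, C1R and C1S, the soluble regulators CFI and CLU and the membrane regulators CD55 and CD59. CD46, a membrane cofactor for C3b cleavage, was not analysed here.

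All 5 animals were healthy multiparous Nelore (Bos indicus) cows, and all received the same classes of drugs. Cows were first pre-synchronized with a GnRH agonist and then prostaglandin F2α (PGF). An intravaginal progesterone device with estradiol benzoate followed, with PGF at device removal and again later, and a GnRH agonist that induced ovulation. Cows labelled LF/LCL (n = 2) ovulated a larger follicle and formed a larger corpus luteum, and their device was removed 42 h before GnRH and PGF was also given at device insertion. Cows labelled SF/SCL (n = 3) had smaller ones, and their device was removed 30 h before GnRH, without PGF at device insertion. Tissue was collected on day 4, and each library came from 1 cow. As models the groups are limited in several ways. The cows were picked from the extremes of a ranking on follicle, luteal and hormone variables, a further LF/LCL library was discarded by the study for few reads, and the tissue covered the whole wall of the oviduct.

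The libraries held from 13418278 to 19592174 reads assigned to genes, and the 8 genes had between 139 (CFI, LF/LCL replicate 1) and 45411 reads (C3, SF/SCL replicate 3). Values are normalized reads, which are read counts divided by 1 size factor per library. Levels are not compared between genes, because transcript lengths were not used here. The tissue label was checked against marker genes. OVGP1, the oviduct glycoprotein of secretory cells, had at least 117179 and at most 147247 normalized reads per library. Summed markers did not overlap between groups for 3 cell types, given next. They did overlap for the secretory, stromal fibroblast, endothelial, macrophage, hepatocyte, blood and mesothelial lists. The secretory sum was mostly OVGP1, however. Of the secretory markers PAX8 did not overlap, with 1279 and 1203 in LF/LCL against 952.4, 769.4 and 715.8 in SF/SCL, whereas OVGP1, MSX1 and WT1 did. Among all genes tested 30.1% did not overlap, so a lack of overlap is common in these data. Ciliated cell markers (11 of 11 matched) summed to 53744 to 69977 in LF/LCL, against 78654 to 84123 in SF/SCL, smooth muscle markers (8 of 9) to 55273 to 109610.0 and 13990.1 to 37117, and lymphocyte markers (7 of 7) to 1477 to 1818 and 959.8 to 1116. The ciliated marker PIFO was at 0 in every library but SF/SCL replicate 3, and no marker of these lists was at 0 in all of them. In such whole tissue, fewer cells of a type and less RNA per cell cannot be told apart.

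The comparison asked which complement transcripts differed in abundance between cows with a large and a small ovulatory follicle. C3 was more abundant in each SF/SCL library than in either LF/LCL library, and CLU was more abundant in each LF/LCL library than in any SF/SCL library. CD59 also did not overlap between groups, with a small difference, and the other 5 genes did. Adjusted over the 15815 genes tested by limma, 0 of the 8 passed a threshold of 0.05, as did 0.0% of all genes, and edgeR likewise called 0 (0.0% of all). An unadjusted limma p under 0.05 was found for 2 of 8 against 11.5% of all genes, CLU being higher in LF/LCL (5.64% of all) and C3 higher in SF/SCL (5.86% of all). By edgeR 2 of 8 had an unadjusted p under 0.05, against 11.7% of all genes (5.96% with LF/LCL higher, 5.69% with SF/SCL higher). No overlap was found in 3 of 8 genes, against 30.1% of all genes, CLU being higher in LF/LCL (15% of all), C3 and CD59 in SF/SCL (15.1% of all). With 8 genes these shares are not read as particular to complement. A log2 difference above 1 in size was found for 1 of 8, C3, against 7.79% of all genes. Of the 8 differences 3 were positive (LF/LCL higher) and 5 negative, with a median of -0.17 beside 0.01 over all genes tested.

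C3 (ENSBTAG00000017280) is the component on which all complement pathways converge. It had 7329.8 and 6291 normalized reads in LF/LCL replicates 1 and 2. In SF/SCL it had 11959.6, 19687 and 48734.5 in replicates 1, 2 and 3. The LF/LCL libraries lay close together, whereas the highest SF/SCL library stood 4.07 times above the lowest. The means were 6810.2 ± 735 (SD, n = 2) and 26794 ± 19390.1 (SD, n = 3), and the SF/SCL mean was 3.93 times the LF/LCL mean. On the log2(value + 1) scale the difference was -1.73 ± 0.56 (SE; LF/LCL minus SF/SCL), with a limma unadjusted p of 0.0233 and adjusted p of 0.362. Without SF/SCL replicate 3, the library with the highest value, the log2 difference was -1.18 with a limma unadjusted p of 0.00655 and adjusted p of 0.368. Without LF/LCL replicate 1 or 2 the limma unadjusted p was 0.0604 or 0.0859. The part of the ciliated, smooth muscle and lymphocyte markers and of the secretory marker PAX8, which separate the same groups, was not tested.

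CFB (ENSBTAG00000046158) encodes factor B, which binds C3b and supplies the protease of the alternative pathway convertase. Its values were 1172 and 614.6 normalized reads in LF/LCL, against 1582, 903.8 and 1181 in SF/SCL. The LF/LCL replicate 1 value fell between those of SF/SCL, so that the groups overlapped. The log2 difference was -0.49 ± 0.34 (SE), with a 95% interval from -1.33 to 0.36 and a limma adjusted p of 0.645. It was -0.95 without LF/LCL replicate 1, with a limma unadjusted p of 0.0306, and -0.023 without LF/LCL replicate 2.

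C1R (ENSBTAG00000008612) and C1S (ENSBTAG00000004840) encode the paired serine proteases of C1, the complex that starts the classical pathway. C1R had 1828 and 1313 normalized reads in LF/LCL, against 1236, 732.9 and 2025 in SF/SCL. C1S had 2632 and 1856 in LF/LCL, against 2272, 1082 and 3149 in SF/SCL. Both genes were lowest in SF/SCL replicate 2 and highest in SF/SCL replicate 3, so that their whole range lay within the SF/SCL group. Log2 differences were 0.34 ± 0.42 (SE) for C1R and 0.16 ± 0.45 (SE) for C1S, with limma adjusted p of 0.814 and 0.929. The 95% intervals, from -0.71 to 1.39 and from -0.97 to 1.28, cover differences of either sign. The summed stromal fibroblast markers (8 of 8 matched, none at 0) were also lowest in SF/SCL replicate 2, at 21071, but were highest in LF/LCL replicate 1, at 80174. Their part in these values was not tested.

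CFI (ENSBTAG00000034501) encodes factor I, the protease that cuts C3b to iC3b. It had 163 and 447.2 normalized reads in LF/LCL, against 233.9, 800.5 and 796.3 in SF/SCL. SF/SCL replicate 1 lay between the LF/LCL libraries, and the other SF/SCL libraries lay above both. The group means were 305.1 ± 200.9 (SD, n = 2) and 610.2 ± 325.9 (SD, n = 3). The log2 difference was -0.97 ± 0.68 (SE), with a 95% interval from -2.66 to 0.72; limma gave it an adjusted p of 0.647. It was -0.25 without LF/LCL replicate 1, -1.70 without LF/LCL replicate 2 and -1.56 without SF/SCL replicate 1, the last with a limma unadjusted p of 0.0267.

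CLU (ENSBTAG00000005574) encodes clusterin, a secreted chaperone that also binds the terminal complement complex and blocks its insertion into membranes. It had 39324 and 34779.6 normalized reads in LF/LCL. In SF/SCL it had 22614, 24506 and 23707. All LF/LCL values lay above all SF/SCL values, and the spread within each group was smaller than the gap. The LF/LCL values lay further apart than those of SF/SCL. The means were 37052 ± 3214 (SD, n = 2) and 23609 ± 949.4 (SD, n = 3), a ratio of 1.57. The log2 difference was 0.65 ± 0.11 (SE), with a 95% interval from 0.38 to 0.92, a limma unadjusted p of 0.00108 and adjusted p of 0.197. On whole reads, edgeR's quasi-likelihood test gave CLU an adjusted p of 0.225. DESeq2 gave an adjusted p of 2.02e-05 and called CLU alone of the 8 genes, where it called 2.89% of all genes, 1.38% with LF/LCL higher and 1.5% with SF/SCL higher. Smooth muscle and lymphocyte markers and PAX8, alone of the secretory markers, were likewise higher in LF/LCL and ciliated markers lower, as given above. The part of these markers in the CLU difference was not tested.

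CD55 (ENSBTAG00000006984) encodes decay accelerating factor, a membrane protein that takes apart the convertases. It had 6466 and 3521 normalized reads in LF/LCL, against 4723, 5826 and 4883 in SF/SCL. The SF/SCL values all lay between the LF/LCL values. The log2 difference was -0.10 ± 0.26 (SE), with a 95% interval from -0.75 to 0.55 and a limma adjusted p of 0.92. CD59 (ENSBTAG00000002302) encodes the membrane inhibitor of the terminal pore. It had 608.7 and 517.8 normalized reads in LF/LCL, against 684.1, 679.2 and 628.9 in SF/SCL. These ranges were apart, but LF/LCL replicate 1 and SF/SCL replicate 3 were separated by less than the spread within LF/LCL. Its log2 difference was -0.24 ± 0.13 (SE), with a 95% interval from -0.55 to 0.07; the adjusted p by limma was 0.527.

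**Figure D1:**
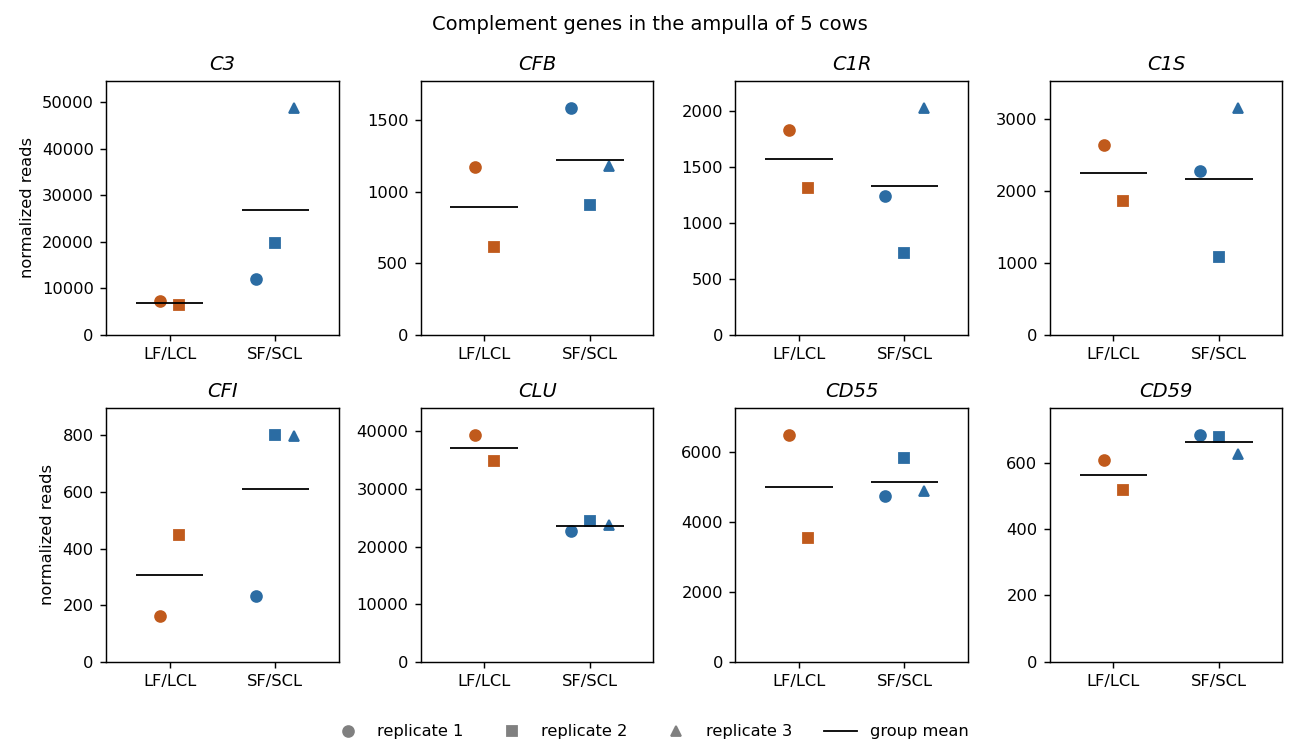
Normalized reads (vertical axes, from 0, a separate scale per gene) of the 8 complement genes in the LF/LCL and SF/SCL groups. Each symbol is 1 library, with the shape giving the replicate, and the line is the group mean. C3 in SF/SCL replicate 3 reached 48734.5 normalized reads, and the CLU values of LF/LCL (34779.6 and 39324) lay above all those of SF/SCL (22614 to 24506).

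The genes also differed in how widely they ranged over the 5 libraries, a span that includes any difference between the groups. On the log2(value + 1) scale 5 of the 8 spanned more than 1 over the libraries, C3, CFB, C1R, C1S and CFI, against 31.9% of all genes tested. The widest was C3, with a span of 2.95, followed by CFI with 2.29. CLU spanned 0.80, CD55 0.88 and CD59 0.40. All 4 components were among the 5 wider genes, but so was the soluble regulator CFI. The membrane regulators CD55 and CD59 were among the narrower ones. Of the 24 other complement genes tested, described below, 21 also spanned more than 1, among them the inhibitor gene C4BPA (5.38). No split by role is read from these spans.

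Ratios of pairs of members were formed within each library, where the size factor cancels. Of the 6 ratios planned, CD55/CD46 could not be formed. Each of the other 5 is compared across libraries only, as it is not per length. The CLU/C3 ratio was 5.37 and 5.53 in LF/LCL, against 1.89, 1.24 and 0.486 in SF/SCL. The LF/LCL cows lay within a narrow band, and each SF/SCL cow lay well below it. CLU was higher and C3 lower in each LF/LCL library, as given above. The ratio therefore had to separate the groups, and its test adds nothing to those values. The difference in log2 ratio was 2.38, with a two-sided exact permutation p of 0.2, which is the smallest that 2 against 3 libraries allow, and 0.5 after adjustment over the 5 ratios. The C1R/C1S ratio was 0.695 and 0.707 in LF/LCL, against 0.544, 0.677 and 0.643 in SF/SCL. It did not overlap either (exact permutation p = 0.2, adjusted 0.5), and its highest value was close to its lowest, unlike the levels of C1R and C1S themselves. The C3/CFB, C3/CFI and CD59/CD55 ratios overlapped between groups. C3/CFB ran from 6.26 (LF/LCL replicate 1) to 41.3 (SF/SCL replicate 3), and C3/CFI from 14.1 (LF/LCL replicate 2) to 61.2 (SF/SCL replicate 3).

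**Figure D2:**
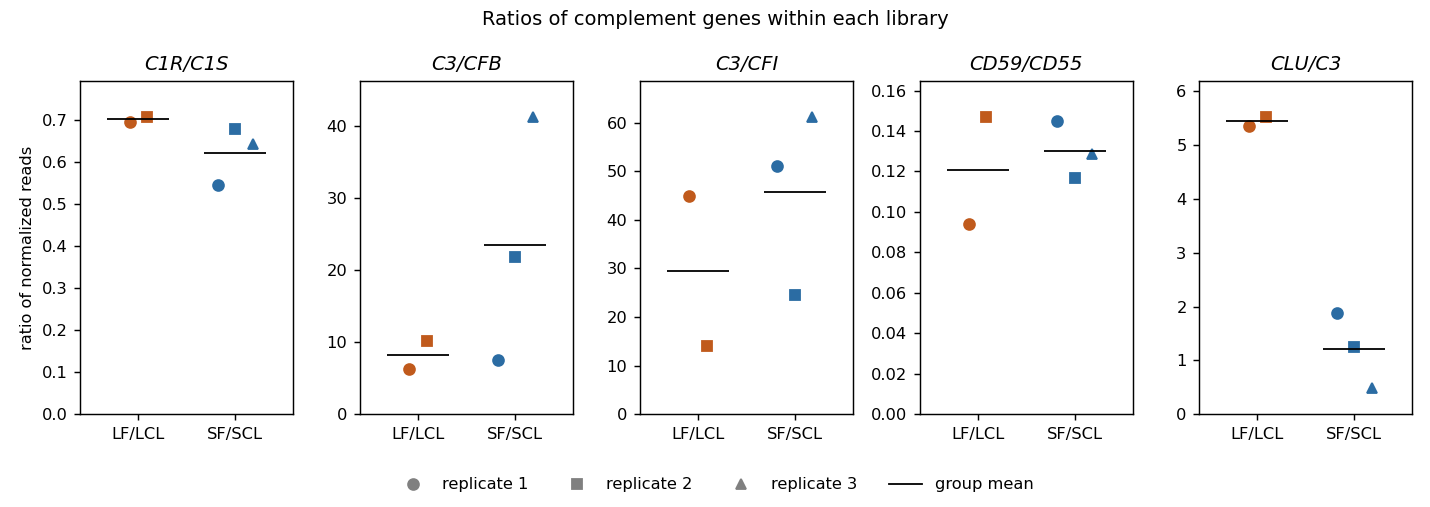
Ratios of normalized reads within each library (vertical axes, from 0, a separate scale per ratio) in LF/LCL and SF/SCL, with symbols for replicates and lines for group means. The CLU/C3 ratio was 5.37 and 5.53 in LF/LCL and at most 1.89 in SF/SCL, while the C1R/C1S ratio kept between 0.544 and 0.707.

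For the 5 genes that spanned more than 1, the genes with the most similar profile were sought among 11951 others with a symbol and a mean of at least 50 normalized reads. Likeness was the root mean square difference of centred log2(value + 1) over the 5 libraries, and it is given as a description. C3 was nearest to NRIP3 (0.25), NTN4 (0.32) and WNT11 (0.34). CFI was nearest to TG (0.25), RIMS2 (0.27) and DUSP5 (0.29), and CFB to AKAP5 (0.14), PPFIA4 (0.15) and ARHGAP29 (0.15). C1R was nearest to CLDN5 (0.06), a tight junction gene of endothelium, and then to PTGS1 (0.10) and EMILIN2 (0.10). C1S was nearest to SCARF1 (0.06), DSE (0.06) and CXHXorf36 (0.09). C1R and C1S lay close to each other as well, at 0.14, which made C1S rank 12 among the neighbours of C1R. CLDN5 belongs to the endothelial marker list, of which 6 of 7 genes matched (none at 0). The list summed to 4721 to 7383 in LF/LCL, against 5729 to 8073 in SF/SCL, with overlap. Of its genes only CLDN5 was lowest and highest in the same libraries as C1R. CDH5 and TEK were also lowest in SF/SCL replicate 2, but CDH5, VWF, TEK and EMCN were highest in LF/LCL replicate 1. KDR was lowest in LF/LCL replicate 2 (1797) and highest in SF/SCL replicate 3 (3560). The part of endothelium in the C1R values was not tested.

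The other complement genes were read from a list of 39 symbols, of which 32 had a row and 24 passed the mean filter of 5 normalized reads. By limma 0 of the 24 passed at an adjusted p of 0.05, and 6 had an unadjusted p under 0.05 (6 also by edgeR), 2 with LF/LCL higher and 4 with SF/SCL higher. All 6 were without overlap between the groups, and no other gene of the 24 was. The shares, 25% for both, stand beside 11.5% and 30.1% of all genes. The median log2 difference was 0.22. At an adjusted p of 0.05 edgeR called 0 of the 24 (0.0% of all genes) and DESeq2 called 3, C4BPA, CFD and C5AR2 (2.89% of all genes).

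C4BPA (ENSBTAG00000009876), the alpha chain of the binding protein that inhibits the classical pathway convertase, had the lowest log2 difference of the list. It had 130.2 and 41.6 normalized reads in LF/LCL, against 518.8, 593 and 1774 in SF/SCL. All SF/SCL values were several times the highest LF/LCL value. With its wide spread C4BPA did not enter the alternative fit limited to genes with a mean above the standard deviation. The paper's methods also state that rule. The paper counts 15815 ampulla genes after its filtering, however, the number that passed the mean filter alone here. The log2 difference was -3.45 ± 0.69 (SE), with a limma unadjusted p of 0.00287 and adjusted p of 0.246, and a DESeq2 adjusted p of 0.00857. The difference was -4.26 without LF/LCL replicate 1 and -2.64 without LF/LCL replicate 2. C4BPB, the gene of its beta chain, had 0 reads in every library.

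CFD (ENSBTAG00000048122), the protease that activates factor B, had 622.7 and 351.4 normalized reads in LF/LCL, against 839, 1017 and 1582 in SF/SCL. The groups were apart, but LF/LCL replicate 1 was closer to SF/SCL replicate 1 than to its own group. Its log2 difference was -1.24 ± 0.35 (SE), with an adjusted p by limma of 0.323 and a DESeq2 adjusted p of 0.0313. Without LF/LCL replicate 2 the difference was -0.83, with a limma unadjusted p of 0.074. C6, a protein of the terminal pore, had few reads, with 9.38 and 3.87 normalized reads in LF/LCL, against 13.5, 31.1 and 42.9 in SF/SCL. COLEC11, a collectin that starts the lectin pathway, had 41 and 59 in LF/LCL, against 70.7, 103.4 and 102 in SF/SCL. The log2 differences of C6 and COLEC11 were -1.94 ± 0.69 (SE) and -0.87 ± 0.34 (SE), with limma adjusted p of 0.379 and 0.418. Their limma unadjusted p was above 0.05 without each of 3 libraries, up to 0.145 for C6 (without LF/LCL replicate 2) and 0.192 for COLEC11 (without LF/LCL replicate 1).

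Higher in LF/LCL were C5AR2 and C8G. C5AR2 (listed as GPR77, ENSBTAG00000037735), the second receptor for C5a, had 526.6 and 303.9 normalized reads in LF/LCL, against 173.6, 126.7 and 100.9 in SF/SCL. Its log2 difference was 1.61 ± 0.33 (SE), with a limma adjusted p of 0.246 and a DESeq2 adjusted p of 0.00158. C8G, the small lipocalin chain of C8, had 435.1 and 458.8 in LF/LCL, against 333.7, 266.6 and 357.4 in SF/SCL, a log2 difference of 0.49 ± 0.17 (SE; adjusted p by limma 0.376). Its limma unadjusted p was also above 0.05 without each of 3 libraries, up to 0.115 without LF/LCL replicate 2.

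**Figure D3:**
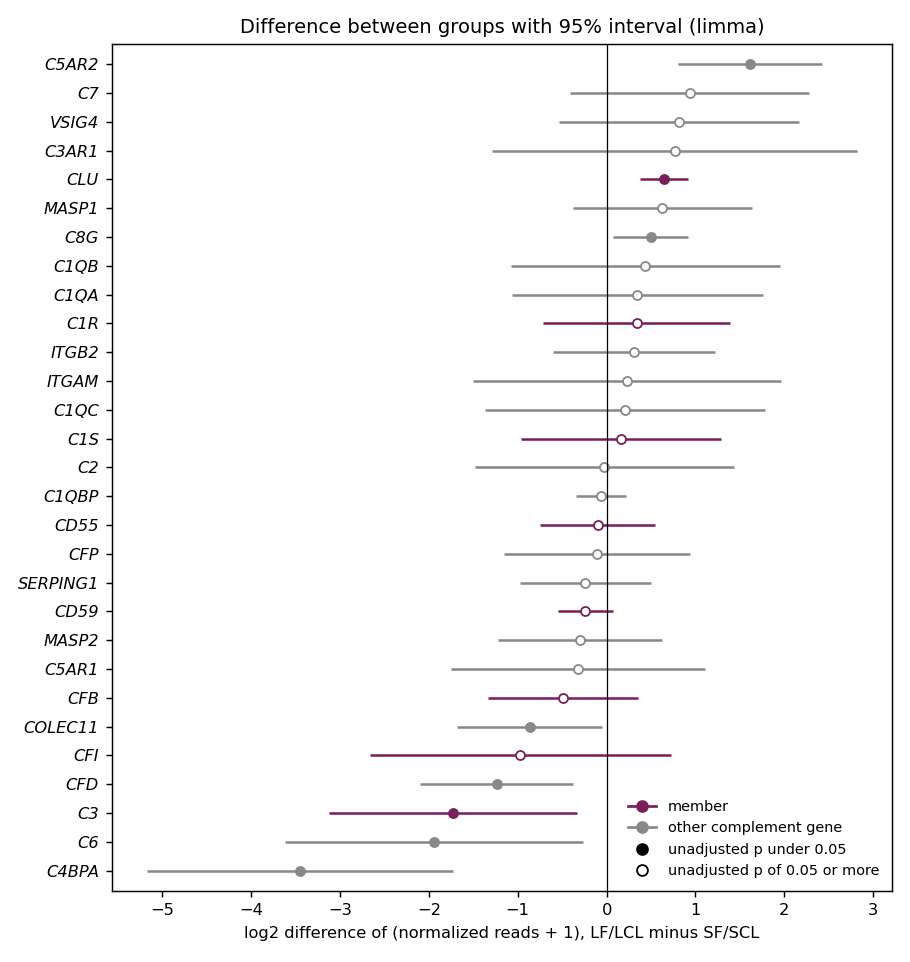
Log2 difference of (normalized reads + 1), LF/LCL minus SF/SCL (horizontal axis), with its 95% interval from limma, for the 8 members and 21 other complement genes with a mean of at least 15 normalized reads. Filled points have an unadjusted p under 0.05, and they comprise C3 (-1.73) and CLU (0.65) of the members and 6 of the other genes, from C4BPA (-3.45) to C5AR2 (1.61).

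The remaining genes of the list described here overlapped between the groups. The 3 chains of C1q, the recognition part of C1, were highest in LF/LCL replicate 2, with 1287 (C1QA), 2011 (C1QB) and 1763 (C1QC) normalized reads, and ran from 354.4 to 1070 in the other libraries. LF/LCL replicate 1 had 417.5, 500.8 and 384.7, so that the LF/LCL cows lay on either side of SF/SCL replicate 1, with log2 differences of 0.35 ± 0.57, 0.44 ± 0.61 and 0.21 ± 0.64 (SE). Without LF/LCL replicate 2 the C1QA, C1QB and C1QC differences turned to -0.47, -0.56 and -0.89, and without LF/LCL replicate 1 they were 1.16, 1.44 and 1.31. Without SF/SCL replicate 2 they were -0.0051, 0.20 and -0.013. LF/LCL replicate 2 was also the highest library for C3AR1 (263.3), VSIG4 (126.8), MASP1 (633), C2 (340.7) and ITGB2 (397.8). The 5 macrophage markers matched outside the C1q genes (of 6, none at 0) summed to 1121 and 1727 in LF/LCL, against 1746, 677.7 and 1774 in SF/SCL. Of them CSF1R (1286) and AIF1 (250.7) were highest in LF/LCL replicate 2, and CD68, CD163 and CD14 in SF/SCL replicate 3. Their part in the C1q values was not tested. C7 went the other way within LF/LCL, with 1492 in replicate 1 and 545.9 in replicate 2, against 291.4 to 742.3 in SF/SCL. SERPING1, the C1 inhibitor, ran from 1961 to 3926 over the libraries, MASP2 from 220.7 to 530.2, C5AR1 from 56.3 to 174.9, ITGAM from 16.3 to 79.4 and CFP from 34.2 to 70.7. C1QBP, a mitochondrial protein first found as a C1q binder, was the narrowest of the list, from 1082 to 1306, with a log2 difference of -0.06 ± 0.12 (SE).

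C8B and CR2 were tested with few reads and overlapped as well. Several genes known from liver were near the limit of detection. C5 had 8 and 2 reads in LF/LCL and from 1 to 2 in SF/SCL. C9 had 4 and 4 in LF/LCL, against 0, 0 and 1 in SF/SCL. VTN, vitronectin, had 13 and 4 in LF/LCL, against 0 in each SF/SCL library. C8A had 3 reads, all in LF/LCL replicate 1, and CPN2 had none. LF/LCL replicate 1 held the most reads of C5, C8A and VTN. Of the hepatocyte markers (10 of 10 matched, APOA2 at 0 in 3 libraries) it was highest for 6, ALB, FGA, FGB, FGG, AHSG and TF, with 194.7 normalized reads of ALB against 11.8 to 58.1 in the other libraries. SF/SCL replicate 3 was highest for 3, APOA1 (594.5), TTR (82.6) and SERPINA1 (128.8), and SF/SCL replicate 2 for APOA2. Their sum overlapped between groups (422 to 1053 in LF/LCL, against 462.4 to 883.2 in SF/SCL). The part of this in the values was not tested.

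A shared order of the cows was noticed after the values were seen. C3 increased from LF/LCL replicate 2 through LF/LCL replicate 1 and SF/SCL replicates 1 and 2 to SF/SCL replicate 3. The same order held for 3 of the 24 other complement genes tested, C4BPA, CFD and C6, and for none of the other 7 members. CD59 and COLEC11, also higher in SF/SCL without overlap, did not follow it. The order places the LF/LCL libraries below every SF/SCL library. Only genes higher in SF/SCL without overlap, as these were already described, could follow it. Over all 15815 genes tested it held for 245 (1.55%), all of them among the 2394 genes higher in SF/SCL without overlap. The order is therefore not a result apart from that separation. The libraries were the same for every gene, so these values are not independent of each other.

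**Figure D4:**
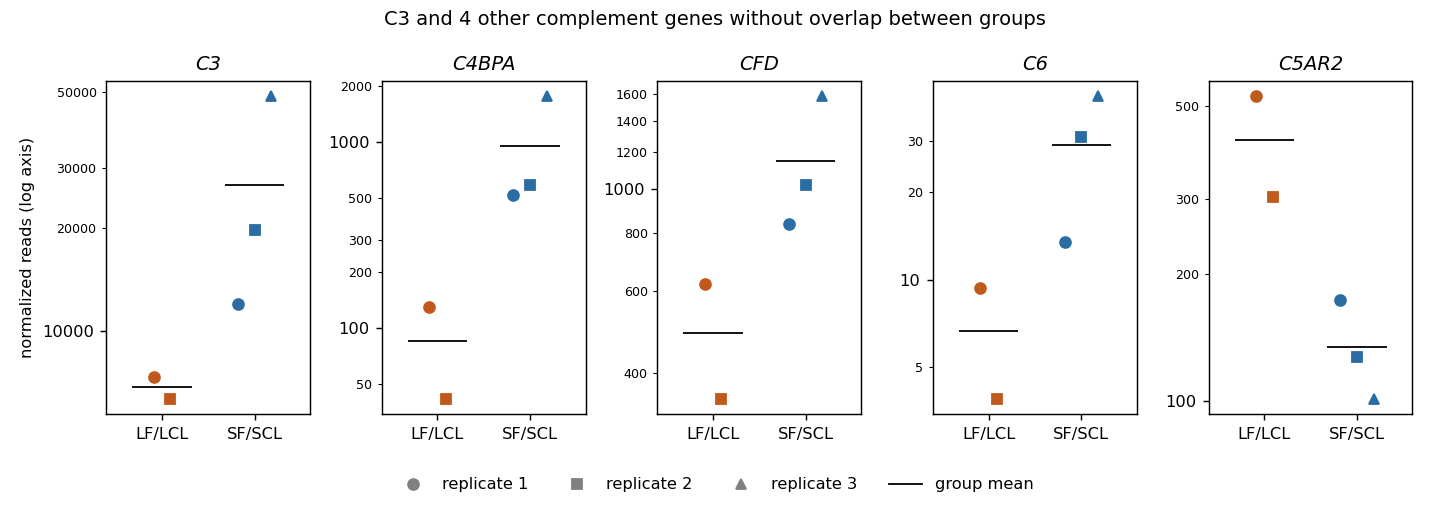
Normalized reads on log axes (a separate scale per gene) of C3, C4BPA, CFD, C6 and C5AR2 in LF/LCL and SF/SCL, with symbols for replicates and lines for arithmetic group means. C3, C4BPA, CFD and C6 are highest in SF/SCL replicate 3 (48734.5, 1774, 1582 and 42.9), and C5AR2 is lowest there (100.9). CLU, CD59, COLEC11 and C8G, also without overlap, are not shown.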

How the data were processed

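Ampulla RNA from 5 cows, 2 in LF/LCL and 3 in SF/SCL per the labels, had been sequenced as polyA libraries in read pairs. The authors trimmed reads with seqyClean, aligned them with TopHat2 2.0.8 and Bowtie2 2.1.0 against UMD 3.1 with repeats masked, and took uniquely assigned reads per gene from HTSeq 0.5.4p2. The strand setting is not given in the sources used here, so reads of antisense or overlapping genes cannot be told apart, and near-identical copies may lose reads. The deposited values are a normalized signal, the read counts divided by 1 DESeq 1.12.1 size factor per library, with 3 decimals. Dividing by each library's step gave whole reads for 100% of nonzero values (tolerance 0.001 normalized reads).

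The main test was limma 3.58.1 on log2(value + 1), with trend and robust estimation, for the 15815 genes with a mean above 5. P-values were two-sided and Benjamini-Hochberg adjusted over all of them. Fold changes on this scale understate the change of low genes. The 8 members passed the filter. Alternatives used edgeR 4.0.16, DESeq2 1.42.0 and limma-voom on the recovered reads, other pseudocounts, filters and scalings, and fits without each library in turn. Counting precision is given by the reads. Tests were checked on simulated data. The members and the lists were chosen with earlier results of these data known. Replicate numbers follow accession order and pair no animals. Named genes were all members, other complement genes with a mean of at least 15 or an unadjusted p under 0.05, and the 3 nearest profiles of members that spanned more than 1 on the log2 scale. Genes near the limit of detection and single marker genes were named after their values were seen. C5AR2 was matched by the older symbol GPR77. For 1 gene of the list the values are not reported here, and it enters the list's counts only.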

Additional observations from a re-analysis of the deposited data

How the results depend on the processing

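The count of 0 members with an adjusted p under 0.05 was also 0 under the 15 alternatives other than DESeq2, which called 1, CLU. Without each replicate in turn it ran from 0 to 0. The 2 members with an unadjusted p under 0.05 ran from 1 to 3 without one replicate (1 without LF/LCL replicate 2, where C3 had a limma unadjusted p of 0.0859), the 3 without overlap from 4 to 5, where fewer libraries overlap more rarely, and the 6 other complement genes from 3 (without SF/SCL replicate 2) to 8 (without LF/LCL replicate 1). Each fit without an LF/LCL library assumes that the lone library varies like the SF/SCL ones. The log2 difference of C3 ran from -2.19 to -1.18 and that of CLU from 0.56 to 0.74. Among the members, signs turned without one replicate for C1S (-0.28 without SF/SCL replicate 2 to 0.50, and -0.092 without LF/LCL replicate 1), C1R (-0.031 without SF/SCL replicate 2 to 0.70) and CD55 (-0.54 to 0.34 without LF/LCL replicate 2). The log2 ratio difference also turned for C3/CFI (-1.60 to 0.080 without LF/LCL replicate 2) and CD59/CD55 (-0.46 to 0.18 without LF/LCL replicate 1). The cause was not tested. No paired analysis was possible because the labels give the cows of the groups no shared numbers. C5, C6, C9 and VTN are limited by depth.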
